A study of Arabidopsis thaliana with 15 samples.

Results

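An activation-tagged line and a CRISPR/Cas line of Arabidopsis thaliana, called the CRISPR line below, each carry a disruption of the endogenous NAC052 locus, of a different kind in each, and were compared here gene by gene. The comparison rested on 6 of the 15 libraries of the study, 3 libraries from each line, selected by line name. Each library came from complete rosettes of 28-day-old plants of the accession Col-0, grown in soil under 16 h of light and 8 h of dark. Both lines carried the pGLDPA_Ft::RbcS.TP-sGFP transgene, a bundle sheath reporter in which a Flaveria trinervia promoter drives a plastid-targeted green fluorescent protein. The reference line carried this reporter alone and was used as the common comparator, with 3 libraries. In the activation-tagged line a T-DNA placed the promoter of the F. trinervia GLDT gene, which is active in the bundle sheath, inside the NAC052 coding sequence. In the CRISPR line a thymine inserted in the first exon of a NAC052 transcript shifted the reading frame. Each genotype is represented by 1 line, so effects of any other change in the genome of that line cannot be told apart from those of the event at NAC052. The labels call the libraries biological replicates without saying whether they are separate plants or pools, so p-values measure the spread between these libraries.

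NAC proteins are a family of plant transcription factors that share a DNA-binding domain at the amino end. NAC052 and its close paralogue NAC050 bind together with JMJ14, a demethylase that removes methyl groups from lysine 4 of histone H3, and these proteins take part in gene repression and in post-transcriptional silencing. Salicylic acid, jasmonate, cytokinin and abscisic acid are hormones whose target genes serve below as functional groups, and in rosettes salicylic acid is best known for inducing the pathogenesis-related (PR) proteins.

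The sequencing lane follows the line. The names in the table put the reference and activation-tagged libraries on lane 1 and the CRISPR libraries on lane 8, together with 6 libraries of lines that carry NAC052 transgenes, GLDT::5'truncatedNAC052 and GLDT::NAC052 (the GLDT lines). Lane and line therefore cannot be told apart in the direct comparison, and the main gene groups are set beside their values within lane 8. Library totals ran from 28074380 to 38355674 counts. Pairs of replicates of the activation-tagged line correlated across genes at 0.980 to 0.984 and those of the CRISPR line at 0.985 to 0.987, while pairs across both lines lay between 0.923 and 0.950 (Pearson, log scale). The rosette label was checked with marker genes. All 4 leaf markers were abundant in every library, the 3 root and 2 seed markers reached at most 2 counts in any library of these lines, and of the 5 flower markers only AG passed the filter on low counts.

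NAC052 (AT3G10490, chr3:3267825-3271202, plus strand, TAIR10.1) was the first gene examined, because it is the target of both events. Its coding sequence has 1356 bases in 4 coding exons and 451 codons. Of the 4 RefSeq isoforms, some begin at the first in-frame ATG in the first coding exon and others at an in-frame ATG in the second coding exon, which leaves 351 codons. Both annotated start codons are shown from RefSeq (TAIR10.1), because an insertion in the first exon or further along the coding sequence leaves different stretches of this frame downstream. The capitals mark the ATG, and the second sequence covers 30 bases on either side.
NAC052 first start codon, chr3:3268075-3268107, plus strand: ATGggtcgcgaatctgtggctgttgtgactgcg
NAC052 second annotated start codon, chr3:3268770-3268832, plus strand: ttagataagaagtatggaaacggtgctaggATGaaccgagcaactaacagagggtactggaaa
In the paper, the tag of the activation-tagged line sits near the end of the DNA-binding domain, shortly before a later in-frame ATG. Neither start codon shown is that ATG. Of the later in-frame ATGs, the one at codon 149 (chr3:3268944-3268946), not shown, leaves 303 codons. That is closest in length to the truncated protein the paper describes. The gene-level counts show how many reads fell on the locus and not which start codon or frame they carried.

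NAC052 transcripts were more abundant in the activation-tagged line than in the CRISPR line. The deposited read count was 710, 661 and 600 in the reference libraries, 2023, 1569 and 2726 in the activation-tagged libraries, and 791, 856 and 899 in the CRISPR libraries. Scaled by library size (CPM), NAC052 stood at 67.2 ± 9.30 (SD, n = 3) in the activation-tagged libraries, 21.2 ± 1.37 in the CRISPR line and 19.6 ± 0.424 in the reference line. The activation-tagged libraries all lay above the others. The direct log2 difference, activation-tagged minus CRISPR, was 1.67 (standard error 0.099, adjusted p = 5.99e-06, edgeR with Benjamini-Hochberg adjustment). Against the reference line the log2 fold change was 1.78 for activation tagging and 0.11 for the CRISPR line, and the latter did not pass the test (adjusted p = 0.421, edgeR, Benjamini-Hochberg). An exact two-sided permutation test of the NAC052 values of both lines gave p = 0.1, the smallest that 3 against 3 libraries allow (0.133 after Benjamini-Hochberg adjustment over 12 such tests).

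The chromosomal neighbours of NAC052 and its silencing partners were described next. NAC053 (AT3G10500), a membrane-tethered NAC factor encoded directly downstream on the same strand, had 431, 337 and 321 counts in the reference line, 1149, 934 and 1380 in the activation-tagged libraries, and 797, 806 and 829 in the CRISPR line. All libraries of both mutant lines lay above the reference, with log2 fold changes of 1.78 and 0.91. The direct log2 difference of NAC053 between the lines was 0.87 (standard error 0.089, adjusted p = 6.55e-05, edgeR, Benjamini-Hochberg), which is under the 2-fold limit. NAC050, the upstream neighbour and paralogue, differed by 0.52 on the log2 scale (adjusted p = 9.00e-04, edgeR, Benjamini-Hochberg), with 800, 611 and 886 counts in the activation-tagged libraries and 677, 668 and 718 in the CRISPR line. Reads shared between these paralogues may have been split by the counting, so small differences in either are uncertain. JMJ14 had 1151, 988 and 1281 counts in the activation-tagged libraries and 1501, 1688 and 1525 in the CRISPR line, a direct log2 difference of -0.09 that did not pass the test (adjusted p = 0.295, edgeR, Benjamini-Hochberg). Among 10 genes of this silencing module, which includes RDR6, SGS3, DCL2, DCL4 and AGO1, NAC052 was the only one called.

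**Figure D1:**
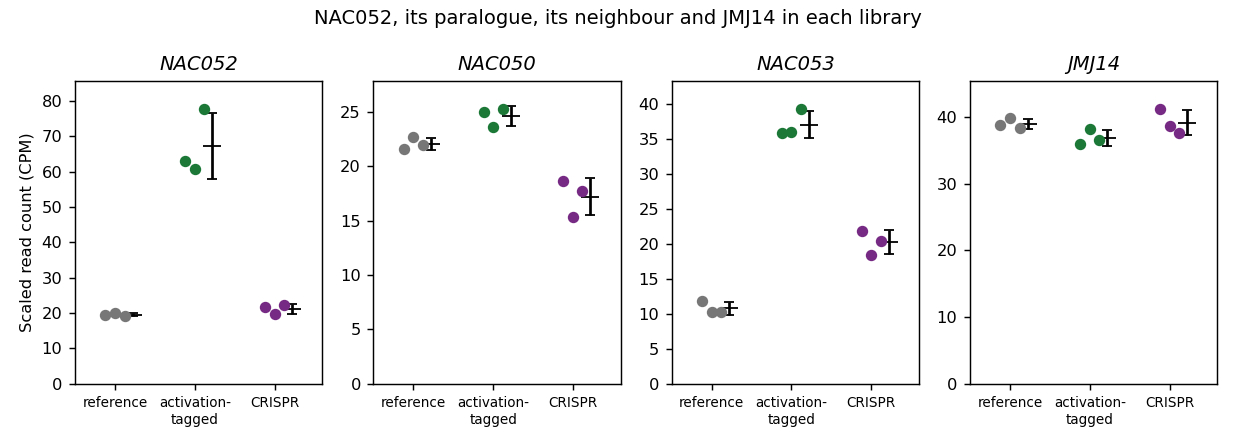
Scaled read counts (CPM, y axes starting at 0) of NAC052, NAC050, NAC053 and JMJ14 in each library of the reference, activation-tagged and CRISPR lines, with points for libraries and bars for the mean and SD. NAC052 averaged 67.2 CPM in the activation-tagged line against 21.2 in the CRISPR line, whereas JMJ14 overlapped between the lines.

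Beyond the locus the lines differed widely. A gene was called when its adjusted p was under 0.05 and its fold change over 2. Of 19261 genes tested, 764 (3.97%) were called higher and 1199 (6.23%) lower in the activation-tagged line than in the CRISPR line (edgeR, Benjamini-Hochberg). By adjusted p alone, 4076 genes (21.2%) were higher and 3880 (20.1%) lower, and for 10363 genes (53.8%) the libraries of the lines did not overlap. The split depends on the scaling. With library totals alone the median log2 difference of all genes moved to -0.29, with 396 genes called higher and 1954 lower, against a median near 0 in the main scaling. Directions below are relative to that median. Counts of called genes in the groups below are to be read beside the 3.97% higher and 6.23% lower of all genes.

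Each line was also set beside the reference. The activation-tagged line had 71 genes (0.369%) called higher and 233 (1.21%) lower than the reference, on the same lane. Across lanes, 702 genes (3.64%) rose and 673 (3.49%) fell in the CRISPR line. The number for the activation-tagged line depended on single libraries, with a total of 304 genes falling to 153 without its replicate 2, 167 without its replicate 3 and 179 without reference replicate 3. Of the 1963 genes called in the direct comparison, 962 were also called between the CRISPR line and the reference, 178 between the activation-tagged line and the reference, and 881 in neither.

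Within lanes, the comparisons were made by adjusted p in a model of all 15 libraries. On lane 1, 374 genes (1.94%) were higher and 337 (1.75%) lower in the activation-tagged line than in the reference. On lane 8, 3967 genes (20.6%) were higher and 3964 (20.6%) lower in the CRISPR line than in the mean of both GLDT lines, which carry NAC052 transgenes and are not a wild type. Of the 764 genes higher in the activation-tagged line, 427 also differed in that direction on lane 8 only, 40 on lane 1 only, 26 on both lanes and 271 on neither. Of the 1199 lower genes, these numbers were 581, 67, 26 and 525. The within-lane values share the libraries of one line with the direct comparison, so they are not a separate test of it. They also cannot place a difference in one line, because the GLDT lines have changes of their own. Numbers from both lanes are not comparable in size, since lane 8 has 6 comparator libraries and lane 1 has 3. Lane 8 counts of the gene groups below are to be read beside the 20.6% of all genes in each direction.

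Salicylic acid genes stood far higher in the CRISPR line than in the activation-tagged line. Of 21 genes of the list, 19 were called lower in the activation-tagged line and 0 higher, with a median log2 difference of -2.73 (median over all genes tested near 0). Against the reference, 17 of the 21 were called higher in the CRISPR line, and 5 were called lower in the activation-tagged line. Over all genes these shares were 3.64% and 1.21%. The 2 members with no call in the direct comparison were NPR1, a salicylic acid receptor (adjusted p = 0.155, edgeR, Benjamini-Hochberg), and SAG101, a partner of EDS1 (log2 difference within the 2-fold limit). On lane 8, 17 of the 21 were also higher in the CRISPR line than in the GLDT lines, with a median log2 difference of 1.79.

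PR1 (AT2G14610), the secreted protein used as the marker of salicylic acid signalling, showed the largest difference of all. PR1 had 2, 5 and 0 counts in the activation-tagged libraries and 40496, 35325 and 33639 in the CRISPR libraries. The reference libraries had 417, 18 and 31, so that reference replicate 1 stood above the other replicates. The GLDT lines of lane 8 had 15, 25 and 137 counts (GLDT::5'truncatedNAC052) and 151, 345 and 756 (GLDT::NAC052). Each CRISPR library thus lay far above every other library of either lane. The direct log2 fold change was -13.50 (standard error 1.296, adjusted p = 4.59e-05, edgeR, Benjamini-Hochberg), and a value against 7 counts in all is imprecise. The fall of PR1 below the reference in the activation-tagged line (log2 fold change -5.81, adjusted p = 0.0475, edgeR, Benjamini-Hochberg) lost its call in 9 alternatives, among them the omission of any 1 activation-tagged or CRISPR library (adjusted p between 0.0664 and 0.136, edgeR, Benjamini-Hochberg).

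Enzymes, transporters and regulators of the salicylic acid pathway moved with PR1. ICS1, which makes the precursor of salicylic acid, had 646, 608 and 654 counts in the activation-tagged libraries and 3442, 3150 and 3752 in the CRISPR line, with 1131, 591 and 504 in the reference. The activation-tagged and CRISPR libraries did not overlap, while the activation-tagged values lay within the range of the reference, and the direct log2 fold change of ICS1 was -2.06 (standard error 0.22, adjusted p = 9.70e-05, edgeR, Benjamini-Hochberg). PBS3, the next enzyme of that route, had 51, 43 and 39 counts against 1513, 1186 and 1529, a log2 fold change of -4.62. PR2, a beta-1,3-glucanase, had 335, 101 and 82 counts against 33443, 34206 and 26380, a log2 fold change of -7.14. FMO1 and ALD1, which make the immune signal N-hydroxypipecolic acid, had log2 fold changes of -7.20 and -5.99, and FMO1 held 2, 0 and 0 counts in the activation-tagged libraries. The lipase-like immune regulators EDS1 and PAD4 differed less, by -1.26 and -1.32 on the log2 scale.

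The same direction was seen in families of immune receptors and regulators, which were chosen after their values were seen. Of 49 WRKY transcription factors tested, 23 were called lower in the activation-tagged line and 0 higher. Of 36 cysteine-rich receptor-like kinases 15 were lower and 0 higher, and of 48 receptor-like proteins 21 were lower and 0 higher. WRKY60 had 26, 27 and 28 counts in the activation-tagged libraries and 661, 861 and 732 in the CRISPR line, without overlap. SAG13, a short-chain dehydrogenase induced in senescing and infected leaves, had 58, 19 and 25 counts against 2313, 1932 and 2362. Of the other senescence markers, ORE1 and SGR1 had no call (log2 differences 0.14 and -0.25), SAG12 had 0 counts in all libraries of both lines, and SAG29 was too low to test, with 0 counts in every activation-tagged library and 0, 2 and 3 in the CRISPR line. On lane 8, 16 of the WRKY genes were higher and 10 lower in the CRISPR line than in the GLDT lines, against 12 and 3 of the kinases and 15 and 2 of the receptor-like proteins. Over all genes the share was 20.6% in each direction, and the 10 lower of 49 WRKY genes were near it.

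The promoter of CYP71A13, a cytochrome P450 of the camalexin pathway described below, is shown from RefSeq (TAIR10.1), 250 bases before to 50 bases after the gene start, because this gene was among those that moved in opposite directions in the lines. The capitals mark TTGAC, the core of the W-box that WRKY factors bind, searched on both strands.
CYP71A13 promoter, chr2:13111939-13112238, minus strand: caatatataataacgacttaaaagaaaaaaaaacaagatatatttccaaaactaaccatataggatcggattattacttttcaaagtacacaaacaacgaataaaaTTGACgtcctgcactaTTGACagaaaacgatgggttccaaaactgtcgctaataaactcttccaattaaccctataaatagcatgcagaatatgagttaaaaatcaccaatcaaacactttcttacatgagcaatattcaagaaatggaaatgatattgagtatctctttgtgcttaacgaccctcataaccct
CYP71A13 had 2 matches. TTGAC was found in 49.9% of all 32546 promoters of this length, in 62.1% of those of genes called lower in the activation-tagged line and in 49.4% of those called higher. These shares describe the letters in the window and not bound sites.

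Genes of protein folding in the endoplasmic reticulum (ER), where secreted proteins such as the PR proteins are made, were higher in the CRISPR line as well. All 16 genes of a list chosen after values were seen were called lower in the activation-tagged line than in the CRISPR line, with a median log2 difference of -1.69. Against the reference, 15 of the 16 were called higher in the CRISPR line, and 3 (BIP3, ATERDJ3A and PDIL2-2) were called lower in the activation-tagged line. The shares over all genes were 3.64% and 1.21%. BIP3, an ER chaperone of the HSP70 family that is induced under ER stress, had 17, 5 and 4 counts in the activation-tagged libraries, 1351, 1206 and 1101 in the CRISPR line and 296, 26 and 54 in the reference. The libraries of the lines were far apart, with reference replicate 1 between them (direct log2 fold change -6.75, standard error 0.84, adjusted p = 2.16e-04, edgeR, Benjamini-Hochberg). The calnexin CNX1 had 1796, 1168 and 1585 counts against 9194, 11830 and 10343, a log2 fold change of -2.41. On lane 8 all 16 genes were higher in the CRISPR line than in the GLDT lines (median log2 difference 1.43).

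**Figure D2:**
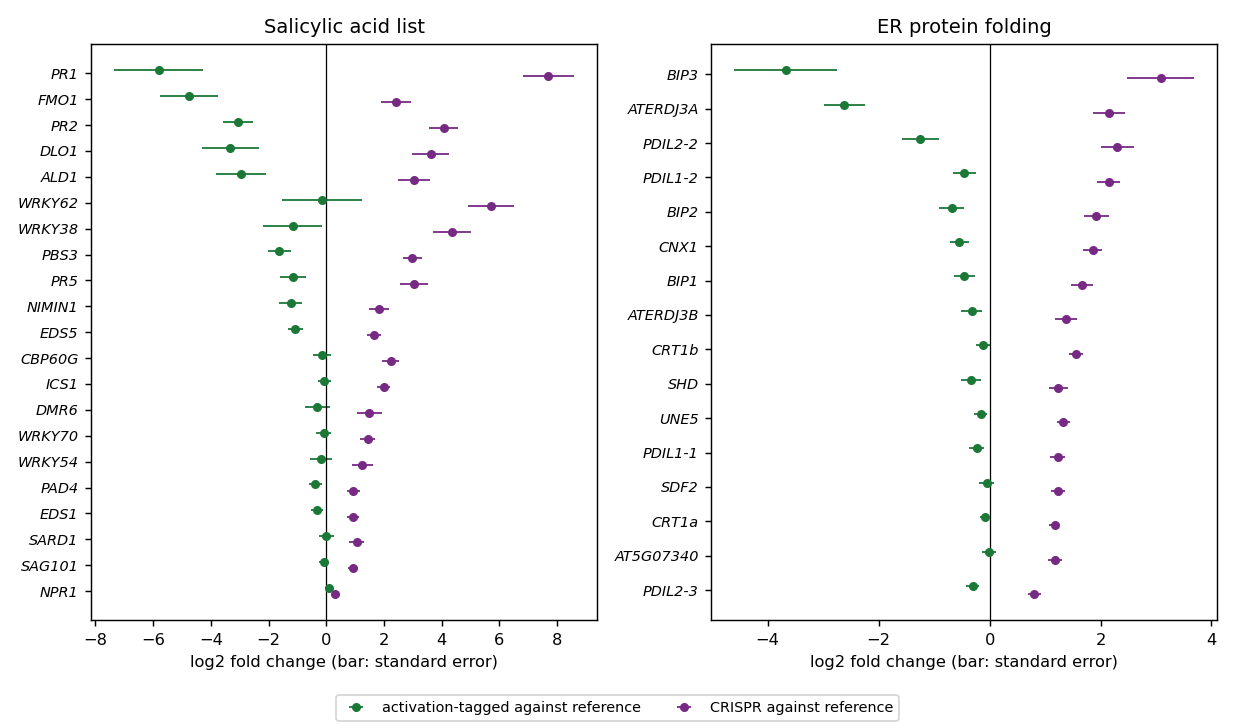
Log2 fold changes against the reference (x axis, bars for standard errors) of the salicylic acid list (left) and the ER protein folding list (right) in the activation-tagged and CRISPR lines. PR1 lay at -5.81 and 7.69, and 19 of 21 and 16 of 16 genes were called lower in the activation-tagged line than in the CRISPR line.

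The BIP3 promoter is shown from RefSeq (TAIR10.1) with ACGTG in capitals, the core shared by abscisic acid response elements and by the sites of ER stress factors of the bZIP family, because this motif was common in the ER group.
BIP3 promoter, chr1:2931801-2932100, minus strand: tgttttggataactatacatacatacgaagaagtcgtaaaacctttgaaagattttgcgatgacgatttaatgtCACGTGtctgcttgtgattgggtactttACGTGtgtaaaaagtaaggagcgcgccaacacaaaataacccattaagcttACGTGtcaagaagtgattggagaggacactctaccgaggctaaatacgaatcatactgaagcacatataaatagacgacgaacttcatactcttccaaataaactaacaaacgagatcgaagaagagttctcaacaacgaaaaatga
It held 4 matches on both strands, of which 2 overlap in the palindrome CACGTG. The motif was found in 25.8% of all promoters and in 81.2% of the 16 of the ER list. Both the list and the motif were picked after values were seen, so this contrast is not a test. ACGTG was also found in 36.0% of the promoters of genes called lower in the activation-tagged line and in 25.3% of those called higher. In the cold and drought list the share was 59.1%.

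Camalexin and indole glucosinolate genes differed in the same direction. These are sulfur-containing defence compounds made from tryptophan. Of 11 genes tested, 7 were called lower in the activation-tagged line than in the CRISPR line and 0 higher, with a median log2 difference of -1.14. CYP71A13 had 3, 4 and 0 counts in the activation-tagged libraries, 390, 361 and 474 in the CRISPR line and 35, 16 and 44 in the reference. The reference lay between both lines without overlap, which was a condition for naming it among the opposite genes. The direct log2 fold change was -7.01 (standard error 0.52, adjusted p = 1.43e-05, edgeR, Benjamini-Hochberg). PAD3, the last enzyme of camalexin synthesis, had 48, 14 and 4 counts against 1136, 1024 and 1218. CYP79B2, which makes the shared precursor, had 628, 473 and 401 counts in the activation-tagged libraries, 2423, 2510 and 3237 in the CRISPR line and 1162, 1301 and 1853 in the reference. On lane 8, 3 of the 11 genes were higher and 1 lower in the CRISPR line than in the GLDT lines, beside 20.6% of all genes in each direction (median log2 difference 0.55). Among 17 aliphatic glucosinolate genes, 2 were called lower and 0 higher, beside 6.23% and 3.97% of all genes, and 2 calls are few to set against that.

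Jasmonate and heat shock genes were also lower in the activation-tagged line than in the CRISPR line, but the values within lane 8 went the other way. Of 23 jasmonate genes, 10 were called lower in the direct comparison and 0 higher, with a median log2 difference of -0.64. The number fell to 4 without activation-tagged replicate 1 or CRISPR replicate 2, 5 without activation-tagged replicate 2, and 6 without CRISPR replicate 1 or 3. LOX2, the chloroplast lipoxygenase of jasmonate synthesis, had 16944, 20706 and 29107 counts in the activation-tagged libraries and 55925, 79477 and 55466 in the CRISPR line, but its reference libraries ranged from 16866 to 47744. VSP2, a storage protein induced by jasmonate, had 266, 400 and 619 counts against 1894, 8400 and 1335, so CRISPR replicate 2 stood above its replicates. On lane 8 the median of the jasmonate list was -1.34, with 15 of 23 genes lower in the CRISPR line than in the GLDT lines. Of 9 heat shock genes, 6 were called lower in the activation-tagged line, among them the chaperone gene HSP70 (47, 45 and 55 counts against 272, 571 and 285). On lane 8, 7 of the 9 were lower in the CRISPR line than in the GLDT lines (median -1.93). The GLDT lines themselves stood above the reference in both lists. Their median log2 fold changes were 0.48 (GLDT::5'truncatedNAC052) and 1.94 (GLDT::NAC052) for jasmonate, against -0.20 in the CRISPR line. For heat shock these medians were 2.19 and 3.47, against 0.48 in the CRISPR line. Whether lane takes part in these differences was not tested.

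Other groups were higher in the activation-tagged line than in the CRISPR line. Of 15 cytokinin genes, 7 were called higher and 1 lower (median log2 difference 0.81; 4 and 2 with library totals alone), and 9 were called lower in the CRISPR line than in the reference. Over all genes these shares were 3.97%, 6.23% and 3.49%. ARR15, a response regulator induced by cytokinin, had 116, 101 and 233 counts in the activation-tagged libraries, 32, 27 and 15 in the CRISPR line and 149, 215 and 176 in the reference. The CRISPR libraries lay below all others, with a direct log2 difference of 2.93 (standard error 0.35, adjusted p = 1.61e-04, edgeR, Benjamini-Hochberg). ARR7 behaved alike, with 1085, 1109 and 1288 counts against 435, 453 and 423 and a log2 fold change of 1.79. AMP1, a carboxypeptidase gene that shapes shoot meristems, had 2302, 2043 and 2902 counts against 1113, 1223 and 1237 (log2 fold change 1.39). On lane 8, 7 of the 15 cytokinin genes were lower and 1 higher in the CRISPR line than in the GLDT lines, beside 20.6% of all genes in each direction. The lane 8 log2 differences were -1.90 for ARR15 and -1.36 for ARR7, against -0.11 for AMP1.

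CC-type glutaredoxins, small redox proteins specific to land plants of which several respond to nitrate, gave 8 of 15 called higher and 2 lower in the activation-tagged line. GRXC14 had 79, 49 and 89 counts in the activation-tagged libraries, 14, 18 and 15 in the CRISPR line and 5, 4 and 7 in the reference, and was called higher than the reference in both. The 2 lower ones were GRX480, which is known to be induced by salicylic acid, and GRXS13. Of 15 nitrate genes, 5 were higher and 3 lower, and library totals alone turned this to 2 and 3. The nitrate reductase gene NIA1 had 3814, 4250 and 5245 counts in the activation-tagged libraries, 1703, 2198 and 4801 in the CRISPR line and 1266, 1095 and 1309 in the reference, so CRISPR replicate 3 came near the activation-tagged libraries. LBD39, a repressor of nitrate-responsive genes, had 664, 596 and 840 counts against 262, 395 and 359. NRT1.7, which moves nitrate out of old leaves, was lower in the activation-tagged line, with 656, 566 and 845 counts against 2230, 4055 and 3649. On lane 8, 10 of the 15 glutaredoxin genes were lower and 3 higher in the CRISPR line than in the GLDT lines, and 4 of the 15 nitrate genes were lower and 0 higher. Over all genes 20.6% were called in each direction there by adjusted p. The GRXS paralogues that lie in tandem are near-identical, and their single values are uncertain.

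Photosynthesis genes differed by small amounts. Of 25 photosystem and Rubisco genes, 24 were higher in the activation-tagged line by adjusted p, 4 passed the 2-fold limit as well, and the median log2 difference was 0.80. LHCB5, a minor antenna protein of photosystem II, had 386896, 307526 and 436266 counts against 216779, 233231 and 241316 (log2 fold change 1.08). Of 12 photorespiration genes 11 were higher by adjusted p and 2 were called. Over all genes 21.2% were higher by adjusted p and 3.97% were called higher. Library totals alone gave 2 calls in the photosystem list and 0 in the photorespiration list. On lane 8, 14 of the 25 photosystem genes were lower and 1 higher in the CRISPR line than in the GLDT lines, and 1 of the 12 photorespiration genes was lower and 4 higher. Over all genes the lane 8 share was 20.6% in each direction. The 4 leaf markers moved along, with summed scaled counts of 36295 to 40261 CPM in the activation-tagged libraries and 22972 to 25504 in the CRISPR line, and with library totals as the only scaling the photosystem median was 0.51. In whole rosettes, fewer cells of a type and less RNA per cell cannot be told apart, and the part of tissue composition in these differences was not tested. Of 38 cell wall genes 6 were called higher and 1 lower, while library totals alone gave 2 and 3, and the 6 became 3 without activation-tagged replicate 3 or CRISPR replicate 3. Of 17 auxin genes 1 was higher and 0 lower, but 5 were higher without CRISPR replicate 3, 2 without CRISPR replicate 2 or activation-tagged replicate 1 or 3, and 8 by adjusted p alone. On lane 8, 15 of the 17 were lower in the CRISPR line than in the GLDT lines.

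The families of SAUR growth genes and NAC factors held calls in both directions. The direct comparison called 10 of 53 SAUR genes higher and 4 lower, and 8 of 54 NAC factors higher and 11 lower, beside 3.97% and 6.23% over all genes. Both families were chosen after their values were seen. The remaining lists were small, and 2 of 9 cell division genes and 2 of 12 DNA methylation genes were higher. Starch metabolism gave 3 of 22 higher, with MEX1 leading, and 1 lower, and the higher genes numbered 5 without activation-tagged replicate 1 or CRISPR replicate 2. The lower gene was GPT2, a glucose 6-phosphate translocator of plastids, with 3, 1 and 4 counts in the activation-tagged libraries and 305, 335 and 374 in the CRISPR line. The early stress list had 3 higher and 3 lower of 19, and all 3 higher genes were the cold regulators CBF1, CBF2 and CBF3. CBF1 had 44, 31 and 31 counts against 7, 15 and 14. The lists for desaturases (1 higher of 10), flavonoids (1 and 1 of 7), dark and sugar starvation (1 and 1 of 12), superoxide dismutases and copper (1 higher of 13), the clock (1 lower of 20) and phosphate (1 lower of 11) had at most 2 calls, and the 17 iron and 10 sulfur genes had 0. The iron list had 2 and the sulfur list 6 genes with an adjusted p under 0.05 and a smaller fold change (edgeR, Benjamini-Hochberg). FSD1, an iron superoxide dismutase, had 20343, 13147 and 19687 counts in the activation-tagged libraries and 352, 4960 and 3864 in the CRISPR line. FSD1 varied widely in the reference too, with 2689, 2842 and 532 counts.

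At an unadjusted p under 0.05 with the same 2-fold limit, 0 genes were higher in the salicylic acid, WRKY, receptor, ER, indole and aliphatic glucosinolate, jasmonate and heat shock lists, 0 lower in the auxin list and 0 either way in the iron and sulfur lists. DESeq2 and limma voom also called 0 higher in the salicylic acid, ER, indole glucosinolate, jasmonate and heat shock lists.

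**Figure D3:**
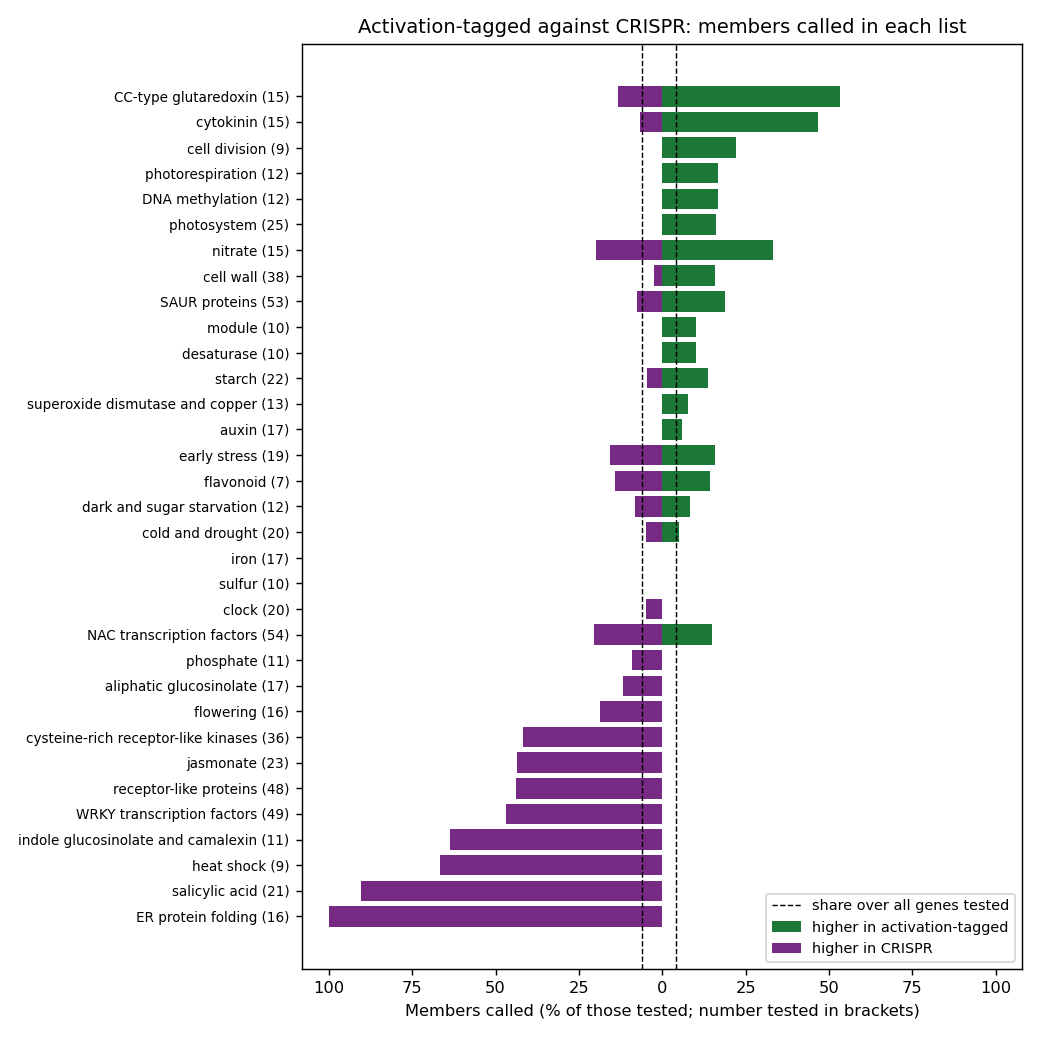
Share of tested genes in each list that were called higher in the activation-tagged line (right) or in the CRISPR line (left), in percent, with the number tested in brackets and dashed lines at 3.97% and 6.23% for all genes tested. The ER folding and salicylic acid lists reached 16 of 16 and 19 of 21 on the left, and the glutaredoxin and cytokinin lists 8 of 15 and 7 of 15 on the right.

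Genes that both lines shared were few. Against the reference, 18 genes (0.0935%) were called higher in both lines and 58 (0.301%) lower in both. The shared higher genes were 25.4% of the calls in that direction for the activation-tagged line and 2.56% of those for the CRISPR line, and the shared lower genes 24.9% and 8.62%. The same 3 reference libraries enter both comparisons, so the sharing has no test of its own. The largest shared genes named below were chosen to be without overlap with the reference. Of the shared lower genes 53 of 58, and of the shared higher genes 10 of 18, had no call between the lines. The shared total of 76 fell to 36 without activation-tagged replicate 2, 44 without its replicate 3, 45 without its replicate 1 and 43 without reference replicate 2.

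The shared lower genes included genes of cold and drought and of jasmonate turnover. RD29A (AT5G52310), a classical target of dehydration and cold signalling, had 3234, 12811 and 5967 counts in the reference, 1037, 666 and 665 in the activation-tagged libraries and 448, 2436 and 1347 in the CRISPR line. Both lines lay below the reference and overlapped with each other (log2 fold changes -3.12 and -2.72, direct difference -0.40, adjusted p = 0.600, edgeR, Benjamini-Hochberg). The call of RD29A in the activation-tagged line was lost without its replicate 2 or 3 (adjusted p = 0.0581 and 0.0539, edgeR, Benjamini-Hochberg). On lane 8 the GLDT lines stood higher, at 15175 to 38004 counts (GLDT::5'truncatedNAC052) and 64422 to 81416 (GLDT::NAC052). Of 20 cold and drought genes, 7 were called lower than the reference in the activation-tagged libraries and 6 in the CRISPR line, 4 of them in both (RD29A, KIN1, LTI30 and ERD10). Over all genes these shares were 1.21%, 3.49% and 0.301%. The list medians were -0.89 and -0.81 against the reference and -0.34 between the lines.

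ST2A, a sulfotransferase that inactivates hydroxylated jasmonate, had 1234, 3530 and 1814 counts in the reference, 145, 107 and 40 in the activation-tagged libraries and 53, 197 and 126 in the CRISPR line. Both lines lay below the reference (log2 fold changes -4.37 and -4.43, adjusted p = 0.00316 and 4.13e-04, edgeR, Benjamini-Hochberg) and overlapped. CYP94B3, which oxidizes the active jasmonate-isoleucine, followed with 18, 4 and 0 counts and 7, 51 and 8 counts, while the reference ranged from 53 to 569 and the calls were fragile. Without reference replicate 3 both were lost (adjusted p = 0.117 and 0.127, edgeR, Benjamini-Hochberg), as was the call in the activation-tagged line without any 1 of its libraries and that in the CRISPR line without its replicate 1 or 3. GRP9, a glycine-rich protein, had 305, 460 and 400 counts in the reference, 37, 35 and 12 in the activation-tagged libraries and 33, 47 and 27 in the CRISPR line. ST2A and RD29A on lane 8 also stood below the GLDT lines, with log2 differences of -6.09 and -5.04 in the CRISPR line. The RD29A promoter is shown from RefSeq (TAIR10.1), with the CCGAC core of the dehydration-responsive element in capitals.
RD29A promoter, chr5:21240467-21240766, plus strand: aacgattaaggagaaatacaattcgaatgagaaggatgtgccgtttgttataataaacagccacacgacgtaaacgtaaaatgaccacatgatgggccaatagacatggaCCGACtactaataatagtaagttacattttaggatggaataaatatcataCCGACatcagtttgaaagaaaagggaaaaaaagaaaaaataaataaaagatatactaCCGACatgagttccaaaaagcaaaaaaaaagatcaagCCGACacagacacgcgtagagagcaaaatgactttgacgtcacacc
It held 4 matches to CCGAC and 0 to ACGTG in this window. CCGAC was found in 14.9% of all promoters and in 25.9% of those of the 58 shared lower genes, and ACGTG in 25.8% and in 29 of the 58.

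The shared higher genes spanned a wide range. CAX3, a vacuolar exchanger of calcium for protons, had 70, 66 and 38 counts in the reference, 827, 1370 and 250 in the activation-tagged libraries and 5133, 4758 and 6784 in the CRISPR line. CAX3 thus rose in both lines and further in the CRISPR line (direct log2 fold change -2.29, standard error 0.52, adjusted p = 0.00596, edgeR, Benjamini-Hochberg). AT4G40020 had 1, 6 and 1 counts in the reference, 63, 67 and 94 in the activation-tagged libraries and 24, 16 and 52 in the CRISPR line. BGLU11, a beta-glucosidase, had 20, 36 and 18 counts, then 79, 67 and 173, then 248, 481 and 294. LHY, a morning gene of the circadian clock, had 45, 56 and 72 counts in the reference, 152, 135 and 166 in the activation-tagged libraries and 136, 272 and 186 in the CRISPR line, without a difference that passed the test between the lines (log2 difference 0.01, adjusted p = 0.975, edgeR, Benjamini-Hochberg). The remaining genes named by the rule were AT3G26470 and UP6, with log2 fold changes of 1.65 and 3.54 for the former and 1.67 and 1.56 for the latter.

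Of the genes tested, 45 (0.234%) were lower than the reference in the activation-tagged libraries and higher in the CRISPR line, and 0 genes were called the other way (edgeR, Benjamini-Hochberg). They were 19.3% of the lower calls of the activation-tagged line and 6.41% of the higher calls of the CRISPR line. All 45 were called in the direct comparison, which follows largely from the selection, since opposite changes over 2-fold add up there. At an unadjusted p under 0.05 and over 2-fold, 143 genes fell in this pattern and 5 in the reverse, while DESeq2 gave 78 and 2 and limma voom 19 and 0. Without the fold limit the split turned, with 122 genes in this pattern and 260 in the reverse. The number was the least stable of those given here, at 9 in the model of all 15 libraries, 19 with limma voom and 13 to 46 when a library was left out, namely 13 and 16 without activation-tagged replicates 2 and 3, 25 and 27 without reference replicates 1 and 3, and 28 and 26 without CRISPR replicates 1 and 3. These totals hold 2 genes of the reverse pattern without reference replicate 1 and 1 without CRISPR replicate 3. Among the 45 were 5 salicylic acid genes (PR1, PR2, PBS3, EDS5 and FMO1), 3 ER folding genes, CYP71A13, GPT2, WRKY60 and HSP70. TTGAC was found in 75.6% of their promoters.

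**Figure D4:**
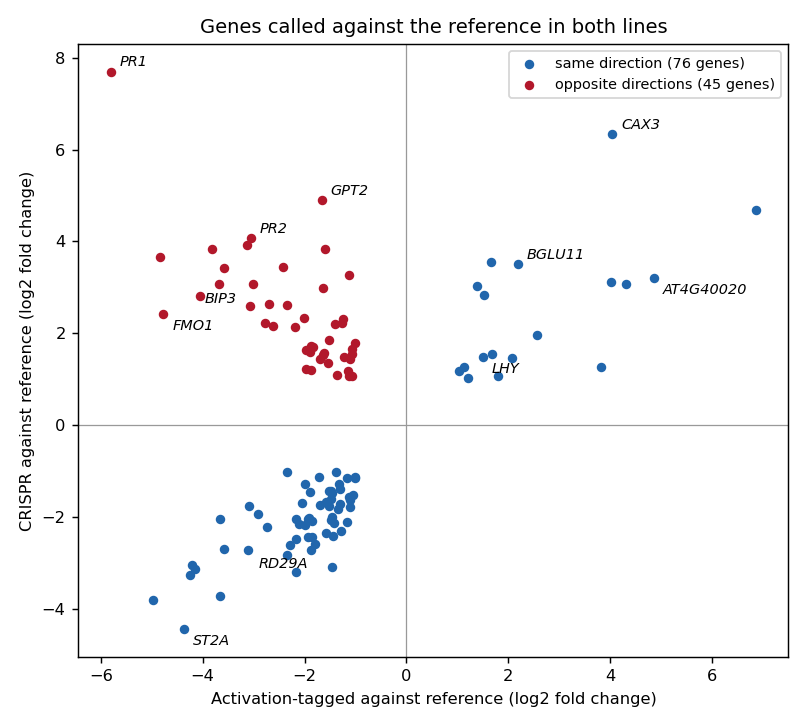
Log2 fold change against the reference in the activation-tagged line (x axis) and in the CRISPR line (y axis) for the 76 genes called in the same direction in both and the 45 called in opposite directions. The opposite genes all sit at the upper left, with PR1 at -5.81 and 7.69, and no gene at the lower right.

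Some genes were present in one line and absent from the other. In 33 genes (0.171%) no activation-tagged library exceeded 3 counts while every CRISPR library had at least 1 CPM, and 0 genes showed the reverse. All 33 were called in the direct comparison, which adds little, since the rule picks a wide gap between the same 6 libraries. In the reference, 8 of the 33 were at 3 counts or fewer in every library, 18 exceeded that in some libraries and 7 in all. Against the reference, 30 of the 33 were called higher in the CRISPR line and only 5 lower in the activation-tagged line. Over all genes these shares were 3.64% and 1.21%. FLC (AT5G10140), the repressor of flowering that vernalization silences, had 0 counts in all 3 activation-tagged libraries, 117, 119 and 92 in the CRISPR line and 16, 74 and 78 in the reference. With 3 counts per library as the floor, FLC was at least 27.8-fold higher in the CRISPR line (adjusted p = 6.51e-04, edgeR, Benjamini-Hochberg). Its paralogues MAF4 and MAF5 were lower in the activation-tagged line too, with log2 differences of -1.38 and -1.83, and the other 13 flowering genes tested had no call. AT2G42360 had 0 counts in every activation-tagged and reference library and 272, 252 and 491 in the CRISPR line, at least 85.8-fold higher than the floor, and on lane 8 it had 36 counts in 1 GLDT::5'truncatedNAC052 library and 19 and 272 in 2 GLDT::NAC052 libraries.

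AT1G52450 was absent from the activation-tagged line alone. It had 0, 0 and 1 counts there, 69, 75 and 58 in the CRISPR line, 52, 79 and 58 in the reference and 29 to 47 in the GLDT lines. Both adjacent genes, AT1G52440 and AT1G52460, had 0 counts in every library of the reference and of both lines. AT1G52430, which lies close by without being adjacent, had 0 counts in all activation-tagged libraries, 31, 18 and 22 in the CRISPR line and 8, 13 and 12 in the reference. Of 66 genome neighbours of the 33 genes, 38 passed the filter, and 8 of these were called lower and 1 higher, beside 6.23% and 3.97% of all genes. The 8 include MSRB8, next to MSRB7, and whether position plays a part was not tested.

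Among called genes with a mean of at least 1 CPM over the 9 libraries and no overlap between the lines, the largest rises in the direct comparison were led by MEX1 (AT5G17520), the maltose exporter of the chloroplast envelope. MEX1 had 1391, 1233 and 1816 counts in the activation-tagged libraries, 13, 18 and 6 in the CRISPR line, 1326, 1526 and 1261 in the reference and 1001 to 1705 in the GLDT lines. The CRISPR libraries lay below all other libraries of either lane, with a direct log2 difference of 7.26 (standard error 0.21, adjusted p = 1.42e-07, edgeR, Benjamini-Hochberg). The other 7 genes named were AT4G15710, AT1G18830, AT1G18990, AT4G37220, AT1G72620, AT3G59930 and DOG1, with log2 fold changes between 3.096 and 4.02. AT4G15710 was raised in the activation-tagged line (120, 120 and 124 counts against 12, 25 and 20 in the reference), whereas DOG1, a regulator of seed dormancy, was lowered in the CRISPR line (42, 31 and 32 counts against 184, 117 and 88). Under the same limits the largest falls besides PR1, FLC, FMO1 and AT2G42360 were AT2G44240, AT4G11350, AT3G28510 and AT2G45220, each with at most 10 counts in every activation-tagged library and at least 85 in every CRISPR library.

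MEX1 marks one edge of a stretch of chromosome 5 in which the CRISPR libraries differed among themselves, a feature chosen after its values were seen. Between MEX1 and AT5G17910 (chr5:5775417-5927267, 152 kb, TAIR10.1) lie 48 genes of the table, of which 26 were expressed enough to be used. Their median log2 difference from the reference mean was -0.83 in CRISPR replicate 1 and -0.87 in replicate 3, but 0.04 in replicate 2, and all 26 genes were highest in replicate 2. The medians of the activation-tagged libraries over these genes lay between 0.02 and 0.09. AT5G17910, at the far edge, was low in all 3 CRISPR libraries (132, 277 and 176 counts against 1247, 1071 and 1193 in the activation-tagged line, direct log2 fold change 2.99). Across 3429 windows of 20 genes, moved on by 5 genes and so overlapping, departures from the other replicates over 0.5 on the log2 scale were sought. CRISPR replicate 2 had 6 such windows, which overlap one another in and around this stretch. Activation-tagged replicate 3 had 3, the largest of them elsewhere (chr4:12117491-12195159). The CRISPR libraries are therefore not uniform in this stretch. In the direct comparison 4 of the 26 genes were called, beside 3.97% higher and 6.23% lower over all genes.

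**Figure D5:**
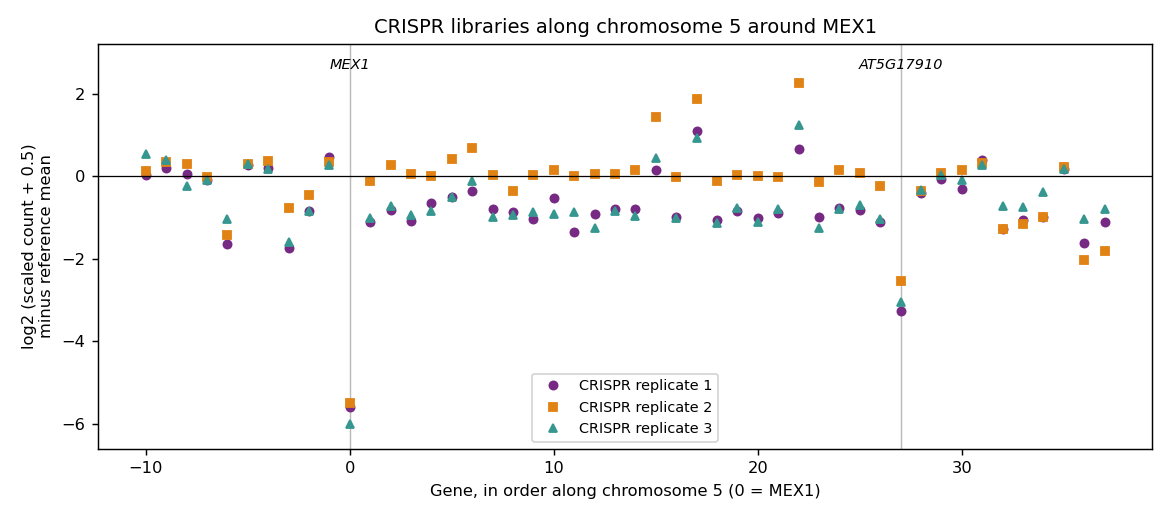
Log2 scaled count of each CRISPR library minus the reference mean (y axis) for genes in their order along chromosome 5 (x axis, MEX1 at 0), with grey lines at MEX1 and AT5G17910. Replicates 1 and 3 sit near -0.83 and -0.87 between the lines while replicate 2 sits near 0.04, and all 3 are low at both edges.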

How the data were processed

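Messenger RNA of complete rosettes was sequenced from stranded libraries. The deposited table holds read counts per gene, whole numbers without normalization, which the authors made from trimmed reads mapped to TAIR10 in CLC Genomics Workbench. Whether counting used strand is not given in the sources used here, so overlapping genes are uncertain. Of its columns 15 were matched to samples by name and 6 were not used.

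Genes were tested with edgeR 4.0.16 in R 4.3.3 (quasi-likelihood F-test, TMM scaling, filterByExpr) in 1 model of the 9 libraries of the reference, activation-tagged and CRISPR lines, which left 19261 of 32833 genes, with Benjamini-Hochberg adjustment over all of them. Standard errors were derived from the F statistic. On simulated data for the direct comparison over 19096 genes, 148 of 150 genes changed by 3-fold or more were recovered with 0 false calls. The simulation gave every gene the same dispersion and changed only genes above a low mean count. It therefore does not cover genes with few counts or uneven replicates, such as PR1. Single-gene exact permutation tests used log2 CPM with a pseudocount of 0.5. Within-lane values came from 1 model of all 15 libraries. Alternatives were median-of-ratios factors, library totals, DESeq2 1.42.0, limma voom 3.58.1, other filters and sets of libraries, a replicate block, no fold limit, and leaving out each library. At these depths a count of 3 or fewer was taken as the floor.

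The lines compared, the gene lists and the tests were chosen with earlier results of these data known. Genes named singly were NAC052, NAC050 and JMJ14, and the 8 largest rises and falls in the direct comparison (called, without overlap, mean of at least 1 CPM). The 5 largest shared changes each way and the 3 largest opposite ones were taken at the same mean. Both lines had to be without overlap with the reference in these genes, so that separation is a condition and not a finding. The rule also took up to 4 called genes per list, list members in the study's tables, genes absent from a line with their neighbours, and markers. NAC053, AT5G17910, WRKY60 and other list members beyond that rule were named after their values were seen. Names, coordinates and sequences come from RefSeq TAIR10.1, which holds 32548 of the 32833 identifiers. Tables and figures were made in Python 3.11.15 with matplotlib 3.10.9, pandas 2.3.3, scipy 1.17.1 and numpy 2.4.6. The sequence of 1 promoter is not reported here.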

Additional observations from a re-analysis of the deposited data

Results flagged for a closer look

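Of the 45 genes called in opposite directions against the reference, the 3 largest under the naming rule are given here. All 45 also differed between the lines (edgeR, Benjamini-Hochberg). The opposite calls largely fix that difference, so it is not a separate test. The log2 difference of the activation-tagged from the CRISPR line was -13.50 for PR1, -7.65 for AT4G11350 and -7.01 for CYP71A13. AT4G11350 had 0, 0 and 1 counts in the activation-tagged libraries, 85, 123 and 139 in the CRISPR line and 11, 7 and 2 in the reference, and its call against the reference in the activation-tagged line was lost in 11 alternatives.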

How the results depend on the processing

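All 1963 genes called between the lines kept their direction wherever they were tested, and 1595 (library totals) to 1950 (median-of-ratios factors) of them were called again with the other tools and scalings. Without a fold limit the numbers were 7956 between the lines, 1481 and 5952 for the activation-tagged and CRISPR lines against the reference, 356 shared and 382 opposite. The opposite genes numbered 80 with DESeq2, 19 with limma voom, 9 with all 15 libraries and 18 with the 6 libraries of each comparison, and the cause was not tested. Leaving out 1 library gave 1717 to 2025 between the lines, 153 to 296 and 1203 to 1468 against the reference, 36 to 96 shared and 13 to 46 opposite. The replicate block, for numbers that did not pair the samples (correlation of deviations between the lines 0.156, 0.0246 and -0.052), gave 1998, 324, 1400, 73 and 67, of which 2 rose in the activation-tagged line and fell in the CRISPR line. Apart from DESeq2 values without an adjusted p, of 3292 values of single genes under alternatives 3169 kept direction and call, 101 lost the call, 22 gained it and 0 reversed. The salicylic acid list had 12 to 20 genes called lower and the ER list 15 to 16. Depth limited genes with few counts in the activation-tagged line, whose fold changes are imprecise.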
